A study of Mus musculus with 6 samples.

Results

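Serpins, the family of serine protease inhibitors whose gene symbols begin with Serpin, were measured by Illumina bead arrays in RNA of skin papillomas from mice wild-type or knockout for Atf2, which encodes a DNA-binding regulator related to CREB. Members were chosen by gene symbol alone, which gave 48 of the 17658 genes named on the array, measured by 62 of its 46116 probes. Clade A had 18 genes, clade B 23, clade F 2, and clades C, D, G, H and I 1 each.

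Both pools came from mice of mixed FVB and C57bl6 background, about 9 months old when papillomas, benign tumours of the skin, were present. The mice had received DMBA, a mutagen, once and TPA, a tumour promoter, for 30 weeks. RNA from papillomas of 2 Atf2 wild-type mice formed 1 pool and RNA from those of 3 Atf2 knockout mice formed the other, and each pool was run on 3 arrays. Arrays of 1 pool repeat the same RNA, so every SD, interval and p-value below measures array spread within these 2 pools and not the spread between mice. Genotype, pool and anything else in which the 2 sets of arrays differed cannot be told apart.

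A serpin folds into a metastable protein with an exposed reactive centre loop. The target protease cuts this loop and is trapped in a covalent complex as the serpin changes shape. Clade A serpins are mostly secreted plasma proteins, clade B serpins act mostly inside cells and are prominent in stratified epithelia, and some members, such as Serpinh1 and Serpinf1, do not inhibit proteases.

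An array's background limit was set at 3 SDs above the mode of its raw intensities and lay between 137.7 and 178.1. Median raw intensity was 135.8 to 148.2 for wild-type and 109.9 to 135.5 for knockout arrays, and knockout array 3 was the dimmest. For Atf2 itself, the brightest of 4 probes gave 184.5, 176.2 and 186.3 in the wild-type pool and 171, 133.2 and 103 in the knockout pool (log2 difference -0.28, limma adjusted p = 0.109), and the others never exceeded background. Whether these probes lie in the deleted part is not stated, so the labels cannot be checked by them. As markers of the tissue, all 7 basal keratinocyte genes listed were above background on every array of both pools, while 4 of 5 hepatocyte markers, among them Alb, were not above background on any array.

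Of the 62 Serpin probes, 18 probes of 17 genes were above background on all 3 arrays of at least 1 pool (29%, against 32.3% of all probes). A further 4 were above it on some arrays, and 40 on none. A filter kept probes with a mean log2 intensity above the median of all probes, which left 25 Serpin probes of 21 genes among 23058 tested probes. These 25 comprised the 18 just named, 3 that were above background on some arrays and 4 that were above it on none. The other 37 probes were not tested, and their log2 differences, knockout pool minus wild-type pool as throughout, ran from -0.56 to 0.46.

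Most tested serpins differed by less than 2-fold between the pools, and a few differed by more in opposite directions. A probe was called when limma's adjusted p was under 0.05 and the difference was at least 2-fold. By this rule 3 Serpin probes of Serpina12 and Serpinb12 were higher in the knockout pool, where 0.984% of all tested probes were called higher. Lower were 2 probes, of Serpinb2 and Serpinh1, where 3.90% of all tested probes were called lower. With the adjusted p alone, 6 of the 25 were higher and 7 lower (20.9% and 17.6% of all tested probes), and 12 did not pass. The normalized values of all knockout arrays lay above those of all wild-type arrays for 10 probes and below them for 7 (27.8% and 20.6% of all tested probes). The median log2 difference was 0.09 over the 25 Serpin probes and 0.05 over all tested probes.

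**Figure D1:**
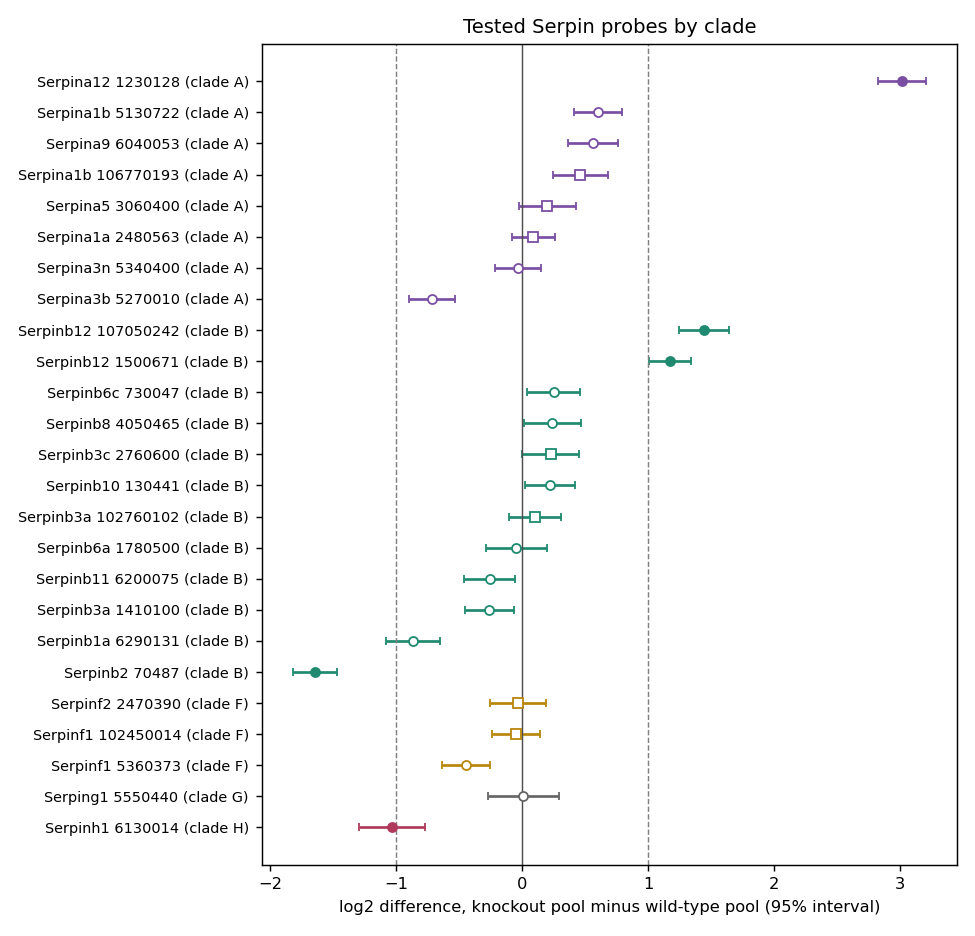
Log2 difference between the pools (x axis, with limma's 95% interval) for the 25 tested Serpin probes, grouped by clade. Filled symbols are past the threshold, circles were above background on all arrays of at least 1 pool, squares were not, and dashed lines mark a 2-fold difference; Serpina12 lies at 3.01 and Serpinb2 at -1.64.

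Serpina12 encodes vaspin, a secreted clade A serpin that in humans inhibits the kallikrein KLK7, a desquamation protease of the epidermis. Its probe 1230128 gave raw values of 153.2, 156.8 and 178.9 in the wild-type pool and 964.4, 925.3 and 788.8 in the knockout pool. All knockout arrays were far above background, whereas only wild-type array 3 exceeded its limit of 178.1, and by less than 1 unit. The difference was 8.08-fold (log2 difference 3.01, SE 0.09, 95% interval 2.82 to 3.21, limma adjusted p = 5.14e-10). Because the wild-type signal lay at the background limit, the size depends on how background was removed: the log2 difference was 2.53 in the authors' deposited normalized values, 3.47 with a normexp offset of 16, and 4.08 when each array's mode was subtracted. The other Serpina12 probe, 3870551, stayed below the limit throughout, with 126.2, 121.6 and 129.1 in the wild-type pool and 135.8, 139.4 and 124 in the knockout pool. After normalization this probe was at 0.40, with all knockout arrays above all wild-type arrays, but it was too dim to be tested.

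Serpinb12, a clade B serpin of epithelia that in humans inhibits trypsin-like proteases, was also higher, on both of its probes. The brighter probe, 1500671, gave 3752.6, 3875.8 and 3868 in the wild-type pool and 8282.2, 7629.3 and 6759.5 in the knockout pool. Every knockout array exceeded every wild-type array, and the difference was 2.25-fold (log2 difference 1.17, SE 0.08, limma adjusted p = 1.81e-07). Probe 107050242, which is annotated to a separate cDNA of the gene, read 476.5, 504.6 and 431.2 in the wild-type pool and 1120.2, 995.3 and 890.1 in the knockout pool. It was higher by 2.72-fold (log2 difference 1.44, SE 0.09, adjusted p = 1.24e-07), again without overlap between the pools.

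Serpinb2, plasminogen activator inhibitor type II, inhibits urokinase and is made by keratinocytes and macrophages. Its single probe gave 3525.4, 3378.2 and 3471.4 in the wild-type pool and 1097.9, 1012.6 and 832.9 in the knockout pool. The wild-type arrays were tightly grouped and all lay above the knockout arrays. Serpinb2 was 3.13-fold lower in the knockout pool (log2 difference -1.64, SE 0.08, 95% interval -1.82 to -1.47, limma adjusted p = 1.69e-08).

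Serpinh1, also called Hsp47, is a collagen chaperone of the endoplasmic reticulum that does not inhibit proteases. It read 3350.7, 3547.4 and 3447.1 in the wild-type pool and 1848.4, 1783.5 and 1010.6 in the knockout pool. The pools did not overlap, but knockout array 3 stood well below the other knockout arrays. Serpinh1 was 2.05-fold lower (log2 difference -1.04, SE 0.12, 95% interval -1.30 to -0.77, limma adjusted p = 2.37e-05), just past the limit. Without knockout array 3 the log2 difference was -0.88, and with scaling to the 75th percentile it was -0.96, both inside the 2-fold limit.

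**Figure D2:**
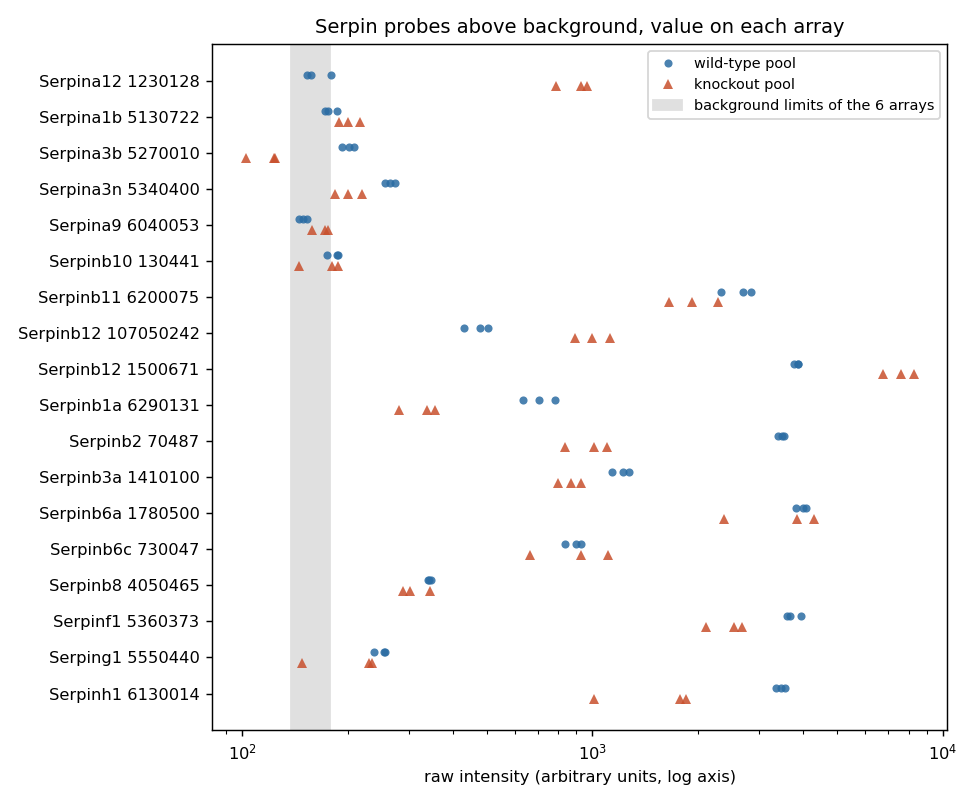
Raw intensity (x axis, log scale, arbitrary units) on each of the 6 arrays for the 18 Serpin probes above background on all arrays of at least 1 pool. Circles are wild-type arrays, triangles knockout arrays, and the grey band spans the background limits of 137.7 to 178.1; Serpina12 is the probe that moves from the band to between 788.8 and 964.4.

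The sequences upstream of these 4 genes are shown because ATF2 is a DNA-binding protein and these are the serpins past the threshold. ATF2 binds the cAMP response element, TGACGTCA, as a dimer, and with JUN proteins it binds variants such as TGACATCA and TTACCTCA. AP-1 dimers of JUN and FOS proteins prefer TGACTCA. Each line gives the 250 bases before a RefSeq transcript start (build GRCm38.p6), 5′ to 3′ on the gene's strand, with any match to the 4 motifs on either strand in capitals.
Serpina12, chr12:104044444-104044693, minus strand: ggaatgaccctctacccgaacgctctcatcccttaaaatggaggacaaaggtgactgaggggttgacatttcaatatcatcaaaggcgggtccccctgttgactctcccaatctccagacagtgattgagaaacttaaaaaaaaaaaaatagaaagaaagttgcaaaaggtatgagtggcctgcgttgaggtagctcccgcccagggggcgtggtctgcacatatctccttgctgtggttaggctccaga
Serpinb12, chr1:106934199-106934448, plus strand: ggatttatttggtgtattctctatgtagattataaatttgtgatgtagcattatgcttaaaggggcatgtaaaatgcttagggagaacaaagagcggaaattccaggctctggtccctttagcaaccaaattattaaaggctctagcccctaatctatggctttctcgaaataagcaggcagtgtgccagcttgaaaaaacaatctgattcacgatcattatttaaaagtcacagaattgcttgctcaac
Serpinb2, chr1:107511173-107511422, plus strand: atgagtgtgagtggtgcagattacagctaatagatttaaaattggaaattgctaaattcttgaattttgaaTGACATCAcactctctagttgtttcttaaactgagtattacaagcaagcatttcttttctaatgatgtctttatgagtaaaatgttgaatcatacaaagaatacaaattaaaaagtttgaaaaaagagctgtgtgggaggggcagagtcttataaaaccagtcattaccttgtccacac
Serpinh1, chr7:99353240-99353489, minus strand: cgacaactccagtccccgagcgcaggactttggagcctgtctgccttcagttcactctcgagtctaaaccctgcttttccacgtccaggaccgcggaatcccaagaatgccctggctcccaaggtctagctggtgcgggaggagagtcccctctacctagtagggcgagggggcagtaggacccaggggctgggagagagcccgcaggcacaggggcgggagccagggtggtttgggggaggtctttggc

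The Serpinb2 window held 1 match, to TGACATCA, starting 179 bases before the transcript start, and the other windows printed held none. A second annotated start of Serpinb2 and one of Serpinb12 had windows with no match. Over 49 such windows of 42 Serpin genes, TGACATCA was present in 3 (6.12%, against 2.93% of 32817 windows of all genes) and TGACTCA in 5 (10.2% against 4.46%). TGACGTCA was in 0 of the 49 (1.55% of all windows) and TTACCTCA in 0 (0.728%). The 3 windows with TGACATCA belonged to Serpinb2, Serpinb3d and Serpinb9d, and of these genes only Serpinb2 was above background. The TGACTCA windows belonged to Serpinb7, Serpinb8, Serpina1a, Serpina1b and Serpina1d. The last 3 genes are near-identical alpha1-antitrypsin copies, so their windows may not be separate occurrences. A match is a run of letters and not a measured binding site, and the motifs were chosen with the expression values and these sequences known.

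Of the 18 clade A genes, 5 were above background on all arrays of a pool, and 12 were not above it on any array. Serpina3n, which inhibits granzyme B and leukocyte proteases, gave 255.1, 264.3 and 272.4 in the wild-type pool and 219.2, 200.6 and 184.4 in the knockout pool. The raw values did not overlap, but after normalization for the dimmer knockout arrays they did (log2 difference -0.04, 95% interval -0.22 to 0.15, limma adjusted p = 0.769).

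Serpina1b, an alpha1-antitrypsin gene, gave 171.9, 176.4 and 186 for the wild-type pool and 216.4, 200.5 and 189 for the knockout pool on probe 5130722. The knockout arrays were slightly higher (log2 difference 0.60, SE 0.09, limma adjusted p = 0.000142), under the 2-fold limit. The difference reached 1.10 when each array's mode was subtracted, which put it past the limit. A second probe was at least 1.18-fold higher, with 2 knockout arrays and no wild-type array above background, and the third was above it on none. The alpha1-antitrypsin genes are near-identical copies and probe sequences were not used here, so their signals cannot be assigned to 1 copy with certainty.

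Serpina9, known in humans from germinal centre B cells, was above background on the 3 knockout arrays only and was at least 1.27-fold higher there (limma adjusted p = 0.000326). Serpina3b went the other way: it read 201.7, 192.7 and 208.3 in the wild-type pool and 123.8, 123.7 and 102.3 in the knockout pool, where it was not above background. It was at least 1.14-fold lower (log2 difference -0.72, adjusted p = 2.2e-05). With a normexp offset of 16 its log2 difference was -1.03, past the limit. Serpina5, the protein C inhibitor, was above background on 1 wild-type and 2 knockout arrays and was at 0.20 (limma adjusted p = 0.15). Its raw means ran the other way before normalization, at 170.9 in the wild-type pool and 158.8 in the knockout pool.

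Genes of clade A whose products are made chiefly by the liver, such as Serpina6, Serpina7 and Serpina10, read between 63.9 and 145.3 and were not above background. The same held for Serpinc1, which encodes antithrombin, Serpind1, which encodes heparin cofactor II, and Serpinf2, which encodes the plasmin inhibitor alpha2-antiplasmin. Serpini2 was likewise not above background. The remaining clade A genes not above background were Serpina11, Serpina16, Serpina1a, Serpina1d, Serpina1e, Serpina1f, Serpina3a, Serpina3i and Serpina3j.

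In clade B, 9 of 23 genes were above background on all arrays of a pool: Serpinb12, Serpinb2, Serpinb6a, Serpinb11, Serpinb3a, Serpinb1a, Serpinb6c, Serpinb8 and Serpinb10. Serpinb6a, which inhibits cathepsin G and trypsin-like proteases, read 3809.7, 3998.9 and 4063.1 in the wild-type pool and 4303.1, 3843.5 and 2382.9 in the knockout pool. The pools overlapped, with knockout array 3 lowest by far (log2 difference -0.05, 95% interval -0.29 to 0.20, limma adjusted p = 0.786). Of its other probes, 1 exceeded background on wild-type array 3 and the others on no array.

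Serpinb11, an epithelial clade B member, read 2699.1, 2841.1 and 2322.3 in the wild-type pool and 2280.1, 1923.1 and 1658.2 in the knockout pool. Its log2 difference of -0.26 (SE 0.09, limma adjusted p = 0.0403) was under 2-fold, as was that of Serpinb3a at -0.26 (adjusted p = 0.0337). Neither passed under every other processing setting, where limma's adjusted p reached 0.227 for Serpinb11 and 0.115 for Serpinb3a. Serpinb3a is a mouse counterpart of the human squamous cell carcinoma antigens, which inhibit cathepsins and chymotrypsin-like enzymes. Its raw mean was 1212 ± 67.2 in the wild-type pool and 864 ± 66.8 in the knockout pool (SD, n = 3 arrays each). A second Serpinb3a probe, not above background on any array, was at 0.10 (limma adjusted p = 0.459).

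Serpinb1a, an inhibitor of neutrophil elastase, cathepsin G and proteinase 3, lay closest below the limit among the lower probes. It gave 635.1, 779.9 and 701.9 in the wild-type pool and 338, 356.3 and 281 in the knockout pool, with no overlap. The log2 difference was -0.87 (SE 0.10, 95% interval -1.09 to -0.65, limma adjusted p = 2.05e-05). It reached -1.08, past the limit, when each array's mode was subtracted. Summed raw intensity of 6 neutrophil markers was 49807 to 51745 on the wild-type arrays and 45369 to 50620 on the knockout arrays. Their median log2 difference after normalization was 0.03, and single genes ran both ways, from Cxcr2 at -0.95 to Retnlg at 2.41, the latter past the threshold. Their part in the Serpinb1a difference was not tested.

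Serpinb6c was at 0.25 (limma adjusted p = 0.0594), Serpinb8, which in humans inhibits furin, at 0.24 (adjusted p = 0.0875), and Serpinb10, a serpin of blood-forming cells, at 0.22 (adjusted p = 0.075). None of these passed the test. For 2 of them the raw means, wild-type pool first, ran the other way before normalization, at 342.6 and 310.9 for Serpinb8 and 183.1 and 171.1 for Serpinb10. Other clade B genes were not above background on any array, among them Serpinb5, which encodes maspin, Serpinb7, Serpinb13 and Serpinb9, which inhibits granzyme B. The other genes of that kind were Serpinb1b, Serpinb1c, Serpinb3c, Serpinb3d, Serpinb6b, Serpinb9b, Serpinb9c, Serpinb9d, Serpinb9e and Serpinb9g. Across all clades the 40 probes above background on no array read between 63.9 and 170.7. A dim probe does not by itself show that its gene is silent. Serpinb6a and Serpina12 each had a probe at background beside another well above it in at least 1 pool.

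**Figure D3:**
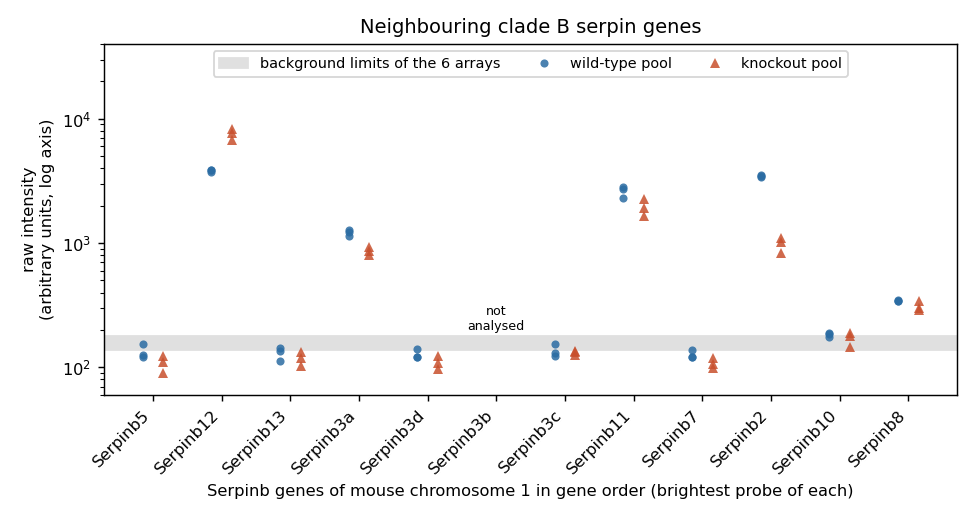
Raw intensity (y axis, log scale, arbitrary units) of the brightest probe of each Serpinb gene on mouse chromosome 1, in gene order, on the 3 wild-type arrays (circles) and 3 knockout arrays (triangles). The grey band spans the background limits; Serpinb12 is higher and Serpinb2 lower in the knockout pool, and Serpinb3b was not analysed.

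Serpinb12 and Serpinb2 lie in the same gene cluster. In the RefSeq gene table of GRCm38.p6, 12 Serpinb genes are consecutive among the protein-coding serpin genes of chromosome 1. Their order is Serpinb5, Serpinb12, Serpinb13, Serpinb3a, Serpinb3d, Serpinb3b, Serpinb3c, Serpinb11, Serpinb7, Serpinb2, Serpinb10 and Serpinb8. Probes were present for 11 of them and 6 were above background. Along this row the log2 differences of the 6 were 1.17 for Serpinb12, -0.26 for Serpinb3a, -0.26 for Serpinb11, -1.64 for Serpinb2, 0.22 for Serpinb10 and 0.24 for Serpinb8. The cluster thus held a rise, a fall and small differences of both signs. On chromosome 12, the nearest protein-coding serpin genes on either side of Serpina12 are Serpina9, which was at least 1.27-fold higher, and Serpina5, at 0.20.

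In the other clades, Serpinf1, the secreted pigment epithelium-derived factor that limits blood vessel growth, was well above background. Its main probe read 3666, 3594 and 3928.4 in the wild-type pool and 2543.6, 2666.3 and 2116.4 in the knockout pool. All knockout arrays were below all wild-type arrays, by less than 2-fold (log2 difference -0.45, SE 0.09, limma adjusted p = 0.00138). A dim second probe (raw means 180 and 147.8) was at -0.05. Serping1, which encodes the inhibitor of complement protease C1, read 254, 255.8 and 238.6 in the wild-type pool and 230.4, 235 and 147.8 in the knockout pool. Its log2 difference was 0.01 (95% interval -0.27 to 0.29, adjusted p = 0.965), with knockout array 3 apart from the others.

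**Figure D4:**
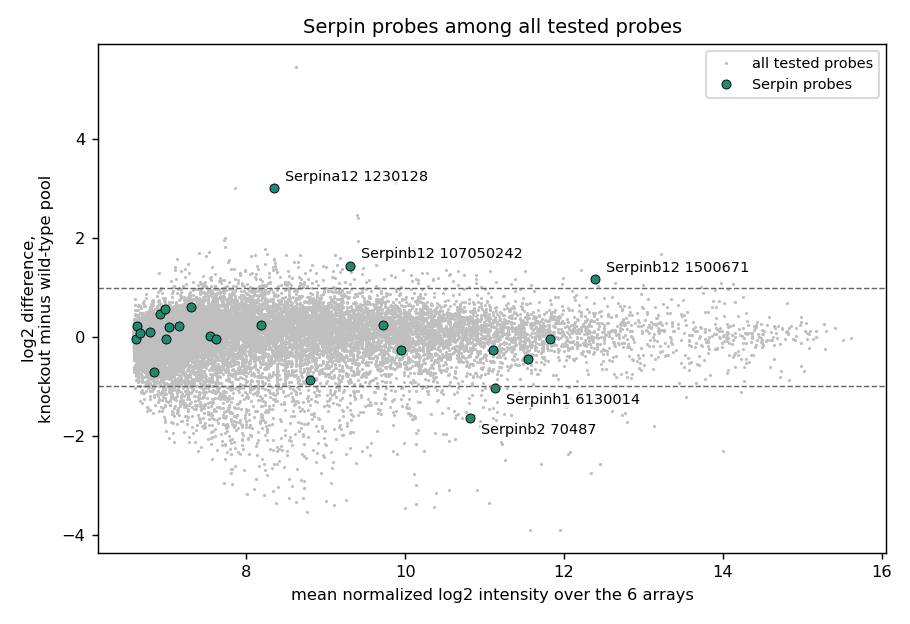
Mean normalized log2 intensity (x axis) against log2 difference between the pools (y axis) for all 23058 tested probes (grey) and the 25 tested Serpin probes (green). The 5 Serpin probes past the dashed 2-fold lines are labelled, with Serpina12 at 3.01 far above the bulk of probes of like intensity.

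Cell type markers also differed between the pools, and a lower signal in bulk tissue cannot tell fewer cells of a type from less RNA per cell. Beside Serpinh1, the summed raw intensity of 7 measured fibroblast markers was 8218 to 9121 on the wild-type arrays and 3175 to 4374 on the knockout arrays. Their median log2 difference after normalization was -0.79, with single genes from -2.01 to -0.28. On their brightest probe, 3 of the 7 genes (Col1a1, Col3a1 and Lum) were lower past the threshold, where 2.48% of all 12096 genes were. Beside Serpinb2, the sum of 4 activated keratinocyte keratins was 140050 to 143392 in the wild-type pool and 78187 to 106624 in the knockout pool, and that of 6 macrophage markers was 2190 to 2272 and 1479 to 1963. After normalization the keratins had a median log2 difference of -0.51. The macrophage markers had a median of 0.16, with Lyz2 lower past the threshold (-1.40) and Mrc1 (0.50), C1qa (0.47) and C1qb (0.32) above 0. Beside Serpina12 and Serpinb12, the sum of 6 differentiated keratinocyte markers was 69971 to 71793 and 75846 to 91612 and the median log2 difference was 0.17, with Krt10 higher (log2 difference 1.52) and Ivl lower (-1.01). The sum of the 7 basal keratinocyte markers was 74730 to 76298 in the wild-type pool and 66080 to 78344 in the knockout pool. Their median log2 difference was 0.22, with single genes from -0.07 to 3.12. On the brightest probe, 1 of the 7 basal genes was higher past the threshold, where 1.12% of all 12096 genes were. The part of these cell types in the serpin differences was not tested.

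Of 40 genes for proteases that serpins act on and for their cofactors, taken on their brightest tested probe, 1 was higher and 4 lower past the threshold (1.12% and 2.48% of all 12096 genes), with a median log2 difference of 0.00 against 0.08 for all genes. The kallikrein gene Klk14 was at a log2 difference of -2.30 (limma adjusted p = 4.19e-09) and Klk10 at -1.26 (adjusted p = 2.28e-06). Plat, tissue plasminogen activator, was at -1.23 (adjusted p = 3.06e-07), and the complement protease gene C1s1, not above background in the knockout pool, was at least 2.06-fold lower. Casp14, a caspase of cornifying keratinocytes, was at 1.06 (adjusted p = 3.91e-06). A second probe of Klk11, also not above background in the knockout pool, was at least 2.90-fold lower, while its brightest probe was at -0.88.

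Klk14 and Plat, just given, are also targets of these serpins, since in humans vaspin inhibits KLK14 as well as KLK7 and plasminogen activator inhibitor type II inhibits both plasminogen activators. Klk7 was at -0.12 (adjusted p = 0.361, limma), with raw means of 10852 and 8894. Plau, which encodes urokinase, was at -0.14 (adjusted p = 0.312), and the urokinase receptor gene Plaur was at 0.83 (adjusted p = 0.000148).

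Of 19 tested genes for collagens and collagen-processing proteins that work with Serpinh1, 0 were higher and 3 lower past the threshold (1.12% and 2.48% of all 12096 genes). Their median was -0.11, against 0.08 for all genes. By limma's p before adjustment (under 0.05, whatever the fold), 4 were higher and 8 lower, where 29.7% and 18.1% of all 12096 genes were. The 3 past the threshold were Col1a1 (-1.12, limma adjusted p = 1.22e-06), Col3a1 (-1.11, adjusted p = 6.41e-06) and Crtap (-1.09, adjusted p = 0.000219), which encodes a subunit of the prolyl hydroxylase complex. Among 14 other epidermal protease inhibitors, 0 were higher and 1 lower past the threshold, beside the same 1.12% and 2.48% of all genes. The lower gene was Spint2 (-1.43, limma adjusted p = 1.12e-06, above background on 2 knockout arrays). The median of the 14 was 0.23. At an unadjusted p under 0.05 the counts were 7 higher and 3 lower, beside those 29.7% and 18.1% of all genes.

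**Figure D5:**
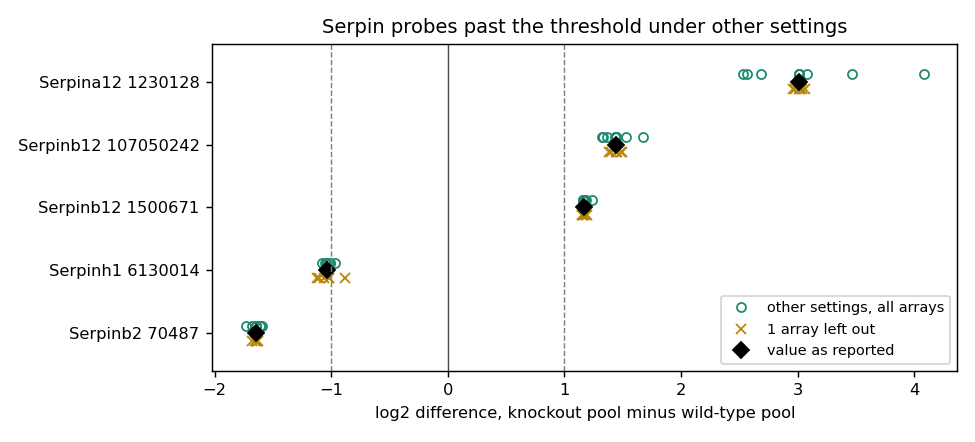
Log2 difference between the pools (x axis) of the 5 Serpin probes past the threshold, as reported (diamonds), under other settings with all arrays (open circles) and with 1 array left out (crosses). Dashed lines mark 2-fold; Serpinh1 crosses inside the line at -0.88 and -0.96, and Serpina12 runs from 2.53 to 4.08.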

How the data were processed

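Each deposited array file gives linear raw intensity for every probe, per the file headers, with neither detection values nor control probes. The authors also deposited normalized log2 values for the same arrays, whose columns share 1 distribution and keep the rank order of the raw intensities. The submitters' processing notes list BeadStudio 3, and the exact steps were not given. Raw intensities were background-corrected (limma normexp, offset 50), converted to log2 and quantile-normalized. Probes above the median mean intensity were tested with limma (lmFit and eBayes with intensity trend, R 4.3.3, limma 3.58.1), two-sided, with Benjamini-Hochberg adjustment over all 23058. The offset understates differences of dim probes. Titles gave the genotype of all 6 arrays, and having 3 a pool limits the precision. An array's background limit is its mode plus 3 SDs of the values below it. Where no array of a pool exceeded it, a fold is a bound, the brighter pool against, per dim array, the higher of the probe's value and the lowest value above background.

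Gene names came from the array's annotation at GEO, in which 29534 probes have 1 symbol, and all 48 Serpin symbols matched the RefSeq table. Promoters, from RefSeq, were listed for 42. Members, gene lists, motifs and background limit were chosen with earlier results of these data known. Values on each array are given for Serpin probes past the threshold and for the brightest of each clade, and other members above background are named with a value. In the lists of target proteases, collagen partners and other inhibitors, genes past the threshold are named, whereas not all such cell type markers are. The targets of Serpina12 and Serpinb2 were added after the values were seen. A list is given by counts and median only. The test was also run on simulated data with the same independent noise for every probe and no spread between mice. That run therefore cannot vouch for the calls above.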

Additional observations from a re-analysis of the deposited data

How the results depend on the processing

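The 3 Serpin probes called higher stayed so under every setting that tested them; Serpina12 was not tested among probes above background on all 6 arrays, which left 2 higher. Serpinb2 was lower past the limit in all 16 alternatives. Serpinh1 was not past it with scaling to the 75th percentile and without knockout array 3, which left 1 lower probe in each. The number lower ran from 1 to 2, and the number higher was 3, with 1 array left out. Subtracting the mode, with a floor of 50, gave 4 higher and 3 lower, and an offset of 16 gave 3 lower. The Serpin median was 0.129 with an offset of 16, -0.0472 with the mode subtracted, 0.138 with 75th percentile scaling, 0.0557 in the authors' values, 0.0294 without a filter, -0.0415 where all 6 arrays had to exceed background, and 0.0306 to 0.123 with 1 array left out, so its sign is not settled. Over all probes, 1126 were past the threshold (20.2% of them higher), against 2021 (36% higher) with the mode subtracted, 748 in the authors' values, 656 with the filter on all 6 arrays, and 1095 to 1183 with 1 array left out. Serpinb6a ran from -0.13 to 0.09 and Serping1 from -0.14 to 0.18. The cause of these shifts was not tested. With the replicate number as a block, 1128 probes passed and the Serpin calls were 3 higher and 2 lower. Deviations of same-numbered arrays correlated at 0.11, -0.13 and 0.04, and those of differently numbered arrays at -0.19 to 0.14. With 3 arrays per pool these values cannot decide whether the numbers pair the arrays. Probes near the background limit, Serpina12 in the wild-type pool among them, have poorly fixed sizes.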
